A study of Mus musculus with 27 samples.

Results

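The genes described are Hif1a, the oxygen-sensing prolyl hydroxylases Egln1 and Egln3, and 7 targets of hypoxia-inducible factor (HIF) that are not glycolytic enzymes: Bnip3, Bnip3l, Pdk1, Ndrg1, Ddit4, Adm and P4ha1. They were chosen by name as 10 of the 50559 genes in the count table, and 9 of them passed the filter on low counts that left 13614 genes; Adm did not. Their levels in these same libraries were known when the set was put together, so those levels and the differences between groups are given as a description, with no test.

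Macrophages grown from bone marrow of C57BL/6 mice were studied by 3′ RNA-seq in 27 libraries, of which the 24 of batch 1 are described here. The donors were labelled as female mice 3 to 4 months old, either WT or deficient in TRAP1, a mitochondrial chaperone of the HSP90 family. Cells were left unpolarized (M0 in the labels, Mφ below) or received IL-4 (10 ng/ml, 24 h) to give M2 cells, and then spent 48 h in DMEM (control medium) or in medium conditioned by malignant peripheral nerve sheath tumour cells (MPNST-CM, CM in the labels), renewed after 24 h. The 8 groups are therefore Mφ and M2, WT and TRAP1 KO, in control medium and in MPNST-CM, with 3 batch 1 libraries each. Values of single libraries are given in order of replicate number, 1 to 3, or 2 to 4 for WT M2 in control medium. All cells lived in culture without tumour cells and all KO cells carried the deletion throughout, so no group shows a loss of TRAP1 limited in time. The labels do not say whether replicate libraries came from separate animals or cultures, so the spread given here, and each p-value, may be technical in part.

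HIF-1 is a pair of proteins, the regulated HIF-1α encoded by Hif1a and the constant partner ARNT, that binds short DNA elements near its targets. In well-oxygenated cells the prolyl hydroxylases, which need oxygen, iron and 2-oxoglutarate, mark HIF-1α for the VHL ubiquitin ligase and its degradation; succinate, the product that accompanies hydroxylation, inhibits them. Because that control acts on the protein, a transcript level of Hif1a is not a measure of HIF-1α protein. Egln1 and Egln3 are themselves HIF targets and form a feedback loop. HIF-1 is known in macrophages for its part in metabolism and in the expression of secreted factors.

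The letters that HIF binds are ACGTG or GCGTG, and they were searched on both strands in the 250 bases before each gene's start in RefSeq (GRCm38.p6). RefSeq promoters matched 8 of the 10 genes by symbol, with 2 promoters for Pdk1; Bnip3l and Ndrg1 had none. Of these 9 promoters, 8 held at least 1 core and 6 held ACGTG, against 38.6% and 16.6% of 32851 RefSeq promoters of the same length. The 6 promoters with ACGTG are those of Hif1a, Egln1, Egln3, Bnip3, Ddit4 and P4ha1. A stretch of 80 bases with ACGTG is printed for each of these, whatever the level of the gene in the libraries. Capitals mark the cores, written as CACGT or CACGC where they lie on the other strand, and cores that overlap run together (CACGTG holds ACGTG on both strands).
Hif1a, chr12:73907727-73907806, plus strand, 140 to 61 bases before the start: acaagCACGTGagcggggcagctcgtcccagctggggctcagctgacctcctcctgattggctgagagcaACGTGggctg
Egln1, chr8:124949281-124949360, minus strand, 106 to 27 bases before the start: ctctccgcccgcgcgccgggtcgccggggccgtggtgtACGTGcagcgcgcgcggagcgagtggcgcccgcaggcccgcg
Egln3, chr12:54204045-54204124, minus strand, 250 to 171 bases before the start: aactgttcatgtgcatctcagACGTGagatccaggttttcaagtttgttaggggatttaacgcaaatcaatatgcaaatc
Bnip3, chr7:138909572-138909651, minus strand, 145 to 66 bases before the start: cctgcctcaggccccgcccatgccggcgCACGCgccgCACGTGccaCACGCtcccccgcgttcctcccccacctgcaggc
Ddit4, chr10:59951916-59951995, minus strand, 225 to 146 bases before the start: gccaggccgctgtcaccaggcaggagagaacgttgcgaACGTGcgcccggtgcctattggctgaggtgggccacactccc
P4ha1, chr10:59323216-59323295, plus strand, 80 to 1 bases before the start: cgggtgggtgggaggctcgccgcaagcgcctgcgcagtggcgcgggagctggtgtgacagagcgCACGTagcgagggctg
Bnip3 held the most cores, 5 in its 250 bases, and Hif1a held ACGTG 3 times. A match of these letters is a description of the sequence and not a binding site, and the libraries do not measure binding.

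Counts per batch 1 library ranged from 7037684 to 9089792. Trap1 was at 10.4 to 18.8 CPM (counts scaled to a common library size with TMM factors) in the 12 WT libraries and had 0 counts in the 12 KO libraries. Xist, the RNA of the inactive X chromosome in female cells, ranged from 254 to 504 CPM in WT and did not pass 1.14 CPM in any KO library, against the label of female donors; in batch 1, genotype and this difference cannot be told apart. All 8 macrophage markers and all 5 IL-4 response genes were detected at 1 CPM or more on average. Markers of other cell types were low or absent, with 2 of 7 neutrophil markers (S100a8 and S100a9, summed level of the list 1.75 to 20.4 CPM), none of 7 fibroblast or Schwann cell markers, none of 5 lymphocyte markers (Cd79a at 0), 3 of 4 dendritic cell markers (summed level 4.84 to 19.6 CPM) and 1 of 4 endothelial markers (Kdr, summed level 3.15 to 56.7 CPM, with Emcn and Tek at 0) at that level. Kdr moved with the medium, from 2.67 to 32.5 CPM in control medium to 19.2 to 56.4 CPM in MPNST-CM, and within Mφ in MPNST-CM the IL-4 response genes summed to 2640 to 2757 CPM in KO and to 1194 to 1374 CPM in WT. Mrc1 made up most of these sums, at a mean of 2603 CPM in KO and 1281 CPM in WT. Clec10a was at 92.1 CPM in KO and 25.2 CPM in WT. Retnla, Chil3 and Ccl24 had means under 1 CPM in both, with Chil3 and Ccl24 lower in KO and Retnla higher. Neutrophil markers summed to less in every KO library than in every WT library of the same cells and medium, at 1.75 to 2.24 CPM against 6.87 to 10.03 CPM in Mφ and 10.8 to 13.5 CPM against 15.2 to 20.4 CPM in M2 in control medium, and at 4.14 to 6.99 CPM against 8.52 to 9.22 CPM and 4.89 to 6.21 CPM against 8.55 to 11.6 CPM in MPNST-CM. The means of S100a8 and S100a9 were lower in KO in each of these pairs and made up most of the difference. Not all markers of the list followed them. In MPNST-CM, Ly6g had a mean of 1.87 CPM in KO and 0.713 CPM in WT Mφ. In M2 it was at 0.664 CPM in KO and 0.125 CPM in WT. Mpo was at 0.920 CPM in KO and 0.264 CPM in WT Mφ in MPNST-CM. Dendritic cell markers summed to more in KO than in WT Mφ in MPNST-CM (9.37 to 12.9 CPM against 4.84 to 7.22 CPM). The part of these markers in the results was not tested.

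In 6 of the 8 groups, 1 library stood apart from the other pair. These were replicate 1 of the 4 Mφ groups and of WT M2 in MPNST-CM, where a chi-square per degree of freedom over genes was 16.04 to 37.4 against the other replicates and 2.11 to 3.42 between those, and replicate 2 of KO M2 in control medium (10.8 and 13.1 against 4.26). Leaving out these 6 libraries, a choice made after seeing the data, reversed none of the 108 fitted fold changes of the set and moved 3 by more than the spread between replicates, all of Hif1a and given with it. The listed pathway genes below are also counted without them.

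The 3 batch 2 libraries were left out of the levels, and the pair of KO M2 libraries among them stood apart from the batch 1 libraries with the same labels. Hif1a was at 173 CPM in the batch 2 library labelled KO M2 in control medium, where batch 1 held 47.5 to 49.5 CPM, and at 60.8 CPM in the one labelled KO M2 in MPNST-CM, where batch 1 held 108 to 110.2 CPM (TMM factors over 27 libraries). Ddit4 was at 103 CPM against 4.13 to 4.61 CPM and at 8.51 CPM against 64.1 to 72.1 CPM in the same libraries. Bnip3, at 29.0 CPM in control medium and 14.2 CPM in MPNST-CM, stood in the reverse order of its batch 1 libraries too, at 9.73 to 12.9 CPM and 27.3 to 34.4 CPM. The labels were kept. With the batch 2 libraries in the fit, 32 of the 108 fold changes of the set moved by more than the spread between replicates or changed direction, nearly all of them involving KO M2, and these values are given gene by gene.

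**Figure D1:**
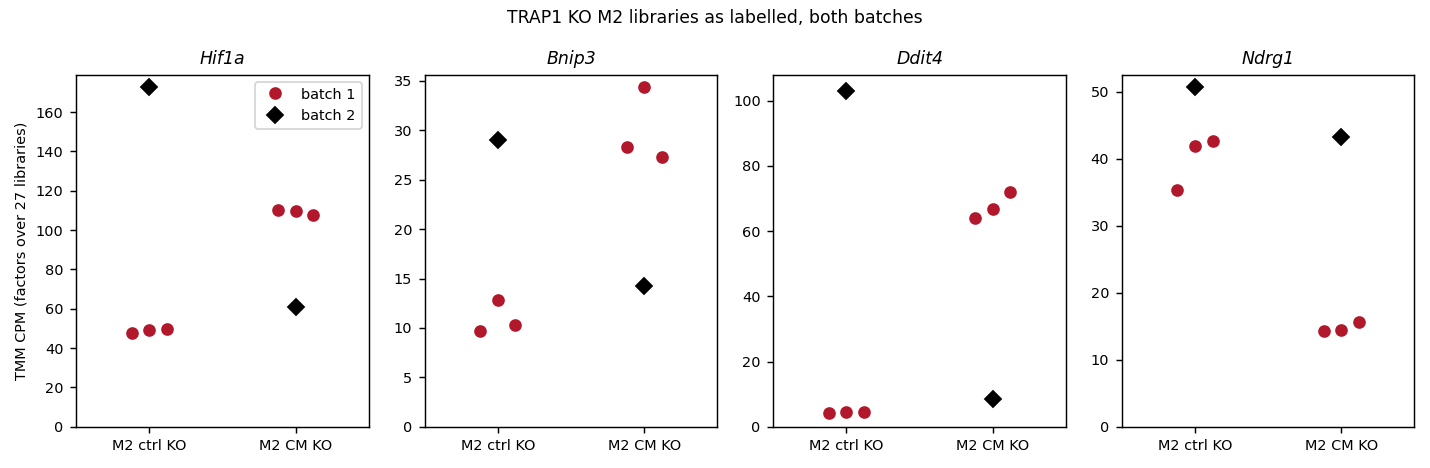
Levels of Hif1a, Bnip3, Ddit4 and Ndrg1 in the TRAP1 KO M2 libraries as labelled (TMM CPM with factors over 27 libraries, linear axes from 0); circles are batch 1 and diamonds batch 2 libraries. The batch 2 diamond of Ddit4 sits at 103 CPM in control medium and at 8.51 CPM in MPNST-CM, the reverse of the circles.

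Hif1a transcripts were at nearly the same level in all 4 groups in control medium and were higher in MPNST-CM, more so in TRAP1 KO cells than in WT cells. In Mφ in control medium the 3 libraries were at 47.5, 53.6 and 45.2 CPM in WT and at 45.8, 52.7 and 50.9 CPM in KO. In MPNST-CM they were at 69.5, 78.8 and 71.5 CPM in WT and at 96.5, 108 and 109 CPM in KO. WT and KO libraries thus overlapped in control medium and were apart in MPNST-CM, with every KO library above every WT library. The same arrangement held in M2, which were at 51.98, 52.6 and 50.1 CPM (WT) and 48.3, 50.1 and 50.3 CPM (KO) in control medium, and at 60.6, 66.4 and 69.4 CPM (WT) and 110.3, 110.2 and 108 CPM (KO) in MPNST-CM. The fitted log2 fold change over control medium was 0.59 ± 0.09 (SE) in WT Mφ and 1.07 ± 0.09 in KO Mφ, 0.34 ± 0.09 in WT M2 and 1.14 ± 0.09 in KO M2. The response was larger in KO by 0.48 ± 0.12 on the log2 scale in Mφ and by 0.80 ± 0.12 in M2. In bulk libraries such as these, fewer cells with a transcript and less of it per cell cannot be told apart. Without the 6 libraries that stood apart, the fold change over control medium in WT M2 was 0.46, KO over WT in M2 in MPNST-CM was 0.61 in place of 0.74, and the M2 difference in response was 0.67. When batch 2 was included, the KO M2 response was 0.28 in place of 1.14 and the M2 difference in response was -0.12. KO over WT in M2 was then 0.64 in place of -0.06 in control medium and 0.52 in MPNST-CM.

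**Figure D2:**
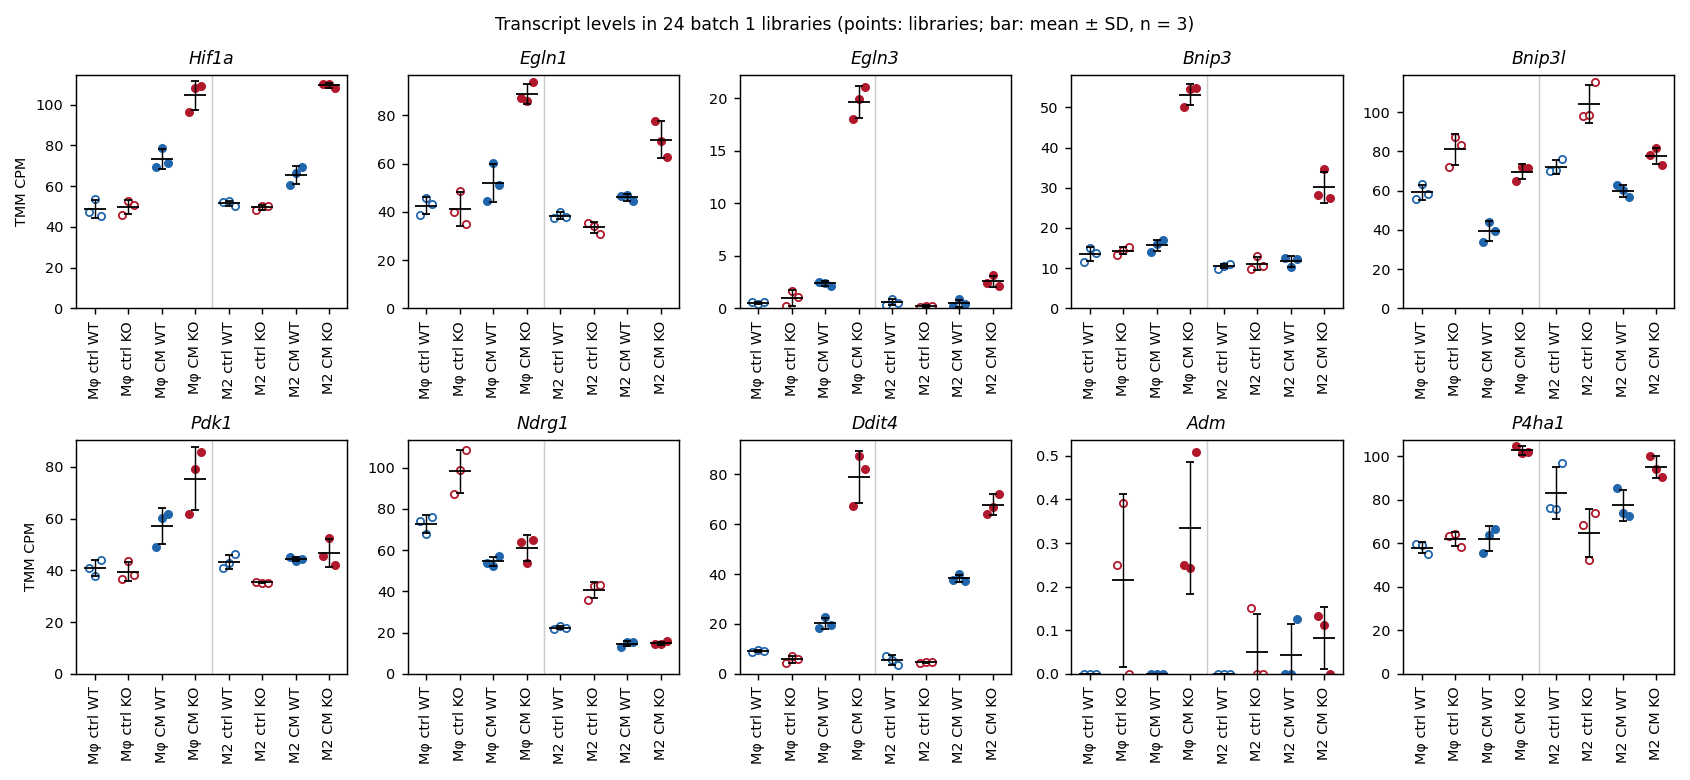
Levels of the 10 genes in the 24 batch 1 libraries (TMM CPM, linear axes from 0, a scale for each gene). Points are libraries (open, control medium; filled, MPNST-CM; blue, WT; red, TRAP1 KO), and bars give the mean ± SD, n = 3; the mean is highest in KO Mφ in MPNST-CM for 7 genes.

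Egln1 encodes PHD2, the main hydroxylase of HIF-1α, and its levels followed a similar course. Control medium gave 38.9, 45.7 and 43.1 CPM in WT Mφ and 39.8, 48.7 and 34.98 CPM in KO Mφ. MPNST-CM gave 44.3, 60.4 and 51.1 CPM in WT Mφ, which overlapped the WT libraries in control medium, and 87.1, 86.0 and 93.7 CPM in KO Mφ, which overlapped no other Mφ group. In M2 the libraries in control medium were at 37.3, 40.2 and 37.8 CPM (WT) and 35.6, 34.3 and 30.9 CPM (KO), with KO slightly below WT. In MPNST-CM they were at 46.6, 47.1 and 44.4 CPM (WT) and 77.8, 69.3 and 62.8 CPM (KO), with KO above WT. The log2 fold change over control medium was 0.29 ± 0.12 and 0.26 ± 0.12 in WT Mφ and M2 and 1.11 ± 0.12 and 1.06 ± 0.12 in KO Mφ and M2. KO cells therefore responded more than WT cells by 0.82 ± 0.16 in Mφ and by 0.80 ± 0.17 in M2. In the fit of all 27 libraries, the KO M2 response was 0.82, its difference from WT 0.51, and KO over WT in M2 in MPNST-CM 0.41 in place of 0.60.

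Egln3 encodes PHD3, a hydroxylase known for strong induction in hypoxia, and it was close to the floor of 3 counts per library in all control medium groups. The WT Mφ libraries had 5, 3 and 5 counts and the KO Mφ libraries 2, 13 and 8 counts in control medium, against 22, 21 and 20 counts (2.16 to 2.55 CPM) and 144, 164 and 165 counts (17.98 to 21.01 CPM) in MPNST-CM. The ratio of MPNST-CM to control medium over the summed counts was 4.48 in WT Mφ (exact 95% counting interval 2.44 to 8.88) and 19.8 in KO Mφ (13.1 to 31.6). These intervals cover counting error only. In MPNST-CM the KO Mφ libraries held 8.29 times the WT level (6.36 to 10.96). The fitted log2 fold change of MPNST-CM over control medium in KO Mφ ran from 3.82 without replicate 1 to 4.90 without replicate 2 of KO Mφ in control medium, and KO over WT in control medium from 1.36 to 0.28 without the same libraries. The larger response of KO Mφ, as a log2 difference, was 1.68 and 2.76 without them.
In M2 the levels of Egln3 were lower in MPNST-CM than in Mφ of the same genotype. WT M2 had 2, 7 and 4 counts in control medium and 2, 7 and 3 counts in MPNST-CM, a ratio of 0.823 (0.343 to 1.96). KO M2 had 1, 2 and 2 counts in control medium and 18, 28 and 17 counts (2.15 to 3.16 CPM) in MPNST-CM, a ratio of 11.1 (4.51 to 35.3). The KO level over WT was 5.20 times (2.78 to 10.6) in M2 in MPNST-CM and 0.387 times (0.108 to 1.16) in M2 in control medium, where 5 and 13 counts in all were compared. Fitted KO over WT in M2 in MPNST-CM was 1.96 on the log2 scale without replicate 1 and 2.97 without replicate 2 of WT M2 in MPNST-CM. In M2 in control medium it was between -1.61 and -0.87 with a library left out (replicates 2 and 3 of WT), and the WT M2 response between -0.91 (without replicate 2 of WT M2 in MPNST-CM) and 0.23 (without replicate 3 of WT M2 in control medium). The difference in response was 3.16 without that replicate 3 and 4.28 without that replicate 2. With the batch 2 libraries in the fit, KO over WT in control medium turned from -1.31 to 1.69, the KO M2 response was 0.019 in place of 3.38 and its difference from WT 0.23 in place of 3.65, and the WT Mφ response was 1.74.

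Bnip3 and Bnip3l (NIX) encode related receptors on the outer mitochondrial membrane that direct mitochondria to autophagy, and they behaved differently. Bnip3 was at 11.7, 15.1 and 13.9 CPM in WT Mφ and 13.4, 14.5 and 15.3 CPM in KO Mφ in control medium, and at 14.1, 16.02 and 16.9 CPM in WT Mφ in MPNST-CM. KO Mφ in MPNST-CM stood apart from these at 50.1, 54.6 and 54.8 CPM. In M2 the same group was the high one, at 28.3, 34.6 and 27.3 CPM, with the other M2 groups between 9.91 and 13.1 CPM. The log2 fold change over control medium was 0.21 ± 0.13 and 0.15 ± 0.14 in WT Mφ and M2, with overlapping libraries in both, and 1.88 ± 0.13 and 1.43 ± 0.13 in KO Mφ and M2. The responses of KO and WT differed by 1.67 ± 0.19 in Mφ and by 1.28 ± 0.20 in M2. When batch 2 was included, the KO M2 response was 0.73 and its difference from WT 0.54. KO over WT in M2 was then 0.57 in place of 0.09 in control medium and 1.11 in place of 1.37 in MPNST-CM.

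Bnip3l was lower in MPNST-CM than in control medium in every pair of groups and higher in KO than in WT in every pair. Mφ libraries in control medium were at 55.6, 63.5 and 58.3 CPM (WT) and 72.1, 87.4 and 83.5 CPM (KO), and in MPNST-CM at 34.04, 44.3 and 39.7 CPM (WT) and 65.2, 72.1 and 71.4 CPM (KO). In KO Mφ the highest library in MPNST-CM (72.12 CPM) lay barely under the lowest in control medium (72.15 CPM). With TMM factors over 27 libraries these were at 72.7 and 70.6 CPM, so the groups overlapped. M2 libraries were at 69.9, 70.5 and 76.2 CPM (WT) and 98.0, 98.8 and 115 CPM (KO) in control medium, and at 63.0, 60.1 and 56.6 CPM (WT) and 78.0, 81.7 and 73.3 CPM (KO) in MPNST-CM. No library of a KO group overlapped the WT group in the same cells and medium. KO over WT was 0.45 ± 0.10 and 0.82 ± 0.10 on the log2 scale in Mφ in control medium and in MPNST-CM, and 0.53 ± 0.10 and 0.37 ± 0.10 in M2. In the fit of all 27 libraries, KO over WT in M2 in control medium was 0.28, the KO M2 response to MPNST-CM -0.087 in place of -0.42, and its difference from WT 0.13 in place of -0.15. Its highest group in batch 1 was KO M2 in control medium, a medium in which Bnip3 had no difference between genotypes beyond the spread of its libraries.

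Pdk1 encodes a kinase that blocks the entry of pyruvate into the TCA cycle, and its differences were smaller. It was at 41.1, 37.9 and 43.9 CPM (WT) and 36.8, 43.6 and 38.3 CPM (KO) in Mφ in control medium, and at 49.1, 60.2 and 61.9 CPM (WT) and 61.8, 79.1 and 85.7 CPM (KO) in MPNST-CM. MPNST-CM libraries were above control medium libraries in both genotypes, by 0.48 ± 0.11 in WT and 0.93 ± 0.11 in KO on the log2 scale, while KO and WT in MPNST-CM overlapped by 1 library each. In M2 the levels were 41.01, 42.7 and 46.2 CPM (WT) and 35.6, 35.1 and 35.3 CPM (KO) in control medium, and 45.1, 43.5 and 44.4 CPM (WT) and 45.5, 52.6 and 42.3 CPM (KO) in MPNST-CM. The one M2 group apart from the others was KO in control medium, at a log2 fold change of -0.29 ± 0.12 against WT, and at -0.34 with the batch 2 libraries in the fit.

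Ddit4 (REDD1), an inhibitor of mTORC1 induced by hypoxia and by other stresses, had the widest range among the genes with counts well above the floor, 17.5 times between its highest and lowest group means. In control medium it was at 8.83, 9.51 and 9.11 CPM (WT) and 4.38, 6.94 and 5.92 CPM (KO) in Mφ, and at 7.21, 5.70 and 3.51 CPM (WT) and 4.20, 4.69 and 4.69 CPM (KO) in M2. In MPNST-CM it was at 18.5, 22.8 and 19.5 CPM (WT) and 67.3, 87.6 and 82.3 CPM (KO) in Mφ, and at 37.6, 39.9 and 37.2 CPM (WT) and 64.2, 67.1 and 72.3 CPM (KO) in M2. Every MPNST-CM library was above every control medium library, and in MPNST-CM every KO library was above every WT library. The log2 fold change over control medium was 1.15 ± 0.16 in WT Mφ, 3.78 ± 0.16 in KO Mφ, 2.81 ± 0.17 in WT M2 and 3.90 ± 0.17 in KO M2. The difference between the genotypes was thus larger in Mφ (2.63 ± 0.23) than in M2 (1.09 ± 0.25). With the batch 2 libraries in the fit, the M2 difference was -2.03 and the KO M2 response 0.83. KO over WT in M2 was then 2.44 in place of -0.27 in control medium and 0.41 in place of 0.83 in MPNST-CM.

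P4ha1 encodes a subunit of the prolyl 4-hydroxylase of collagen, an enzyme of the same oxygen-using class as the EGLN proteins. In Mφ it was at 59.5, 59.2 and 55.0 CPM (WT) and 63.4, 64.0 and 58.4 CPM (KO) in control medium, and at 55.7, 63.8 and 66.7 CPM (WT) and 105, 101 and 102 CPM (KO) in MPNST-CM. Only KO Mφ in MPNST-CM stood apart among the 4 Mφ groups. M2 in control medium were at 76.3, 75.9 and 96.9 CPM (WT) and 68.1, 52.4 and 73.6 CPM (KO), with KO below WT by -0.36 ± 0.11 on the log2 scale. M2 in MPNST-CM were at 85.4, 73.9 and 72.7 CPM (WT) and 100.3, 94.1 and 90.2 CPM (KO), with KO above WT by 0.29 ± 0.11. The response to MPNST-CM was larger in KO by 0.63 ± 0.16 in Mφ and by 0.65 ± 0.16 in M2. The M2 values with the batch 2 libraries in the fit were 0.36 for this difference, and -0.25 and 0.11 for KO over WT in control medium and in MPNST-CM.

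Ndrg1, a gene induced by hypoxia and differentiation, had the opposite course to most of the set. In control medium the libraries were at 74.2, 67.8 and 75.9 CPM (WT) and 87.4, 99.0 and 108 CPM (KO) in Mφ, and at 21.6, 23.2 and 22.04 CPM (WT) and 36.02, 42.7 and 43.3 CPM (KO) in M2. In MPNST-CM they were at 54.0, 52.4 and 57.0 CPM (WT) and 64.2, 53.5 and 64.7 CPM (KO) in Mφ, and at 13.1, 15.6 and 15.2 CPM (WT) and 14.3, 14.5 and 15.7 CPM (KO) in M2. MPNST-CM libraries were below control medium libraries in all 4 pairs of groups. KO was above WT in control medium, by 0.44 ± 0.10 in Mφ and 0.87 ± 0.11 in M2, and overlapped WT in MPNST-CM. When batch 2 was included, KO over WT in M2 in MPNST-CM was 0.53 in place of 0.02, the KO M2 response was -0.96 in place of -1.46 and its difference from WT -0.40 in place of -0.85. M2 were below Mφ by -1.70 ± 0.11 in WT and -1.27 ± 0.10 in KO in control medium.

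Adm, the gene of the vasodilator peptide adrenomedullin, was barely detected. No library held more than 4 counts, and in WT cells a single count was found, in M2 in MPNST-CM. KO Mφ in MPNST-CM had 2 to 4 counts per library (0.243 to 0.509 CPM) and KO Mφ in control medium 0 to 3. No fold is given, since the groups lie at or near the floor of 3 counts.

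Across the set, the responses to MPNST-CM were set against the background of all genes by counting the genes whose 3 libraries in one group lay wholly above or below the 3 in the other. In WT Mφ, 4 of the 10 genes were wholly higher (Hif1a, Egln3, Pdk1 and Ddit4) and 2 wholly lower (Bnip3l and Ndrg1), where 17.1% and 16.2% of the 13614 genes tested were higher and lower (33.3% together). In KO Mφ 7 were higher and 2 lower, where 19.3% and 23.8% of all genes were (43.1% together). The lower genes there were Ndrg1 and, barely, Bnip3l (72.12 against 72.15 CPM in the nearest libraries). The M2 counts were 3 higher (Hif1a, Egln1 and Ddit4) and 2 lower in WT (17.7% and 21.6% of all genes, 39.3% together) and 7 higher and 2 lower in KO (23.2% and 26% of all genes, 49.2% together). The 7 were the same genes in KO Mφ and KO M2, namely Hif1a, Egln1, Egln3, Bnip3, Pdk1, Ddit4 and P4ha1. The median log2 fold change of the 9 fitted genes was 0.29 and 0.03 in WT Mφ and M2 and 1.07 and 1.06 in KO Mφ and M2, against -0.02, -0.03, -0.04 and -0.01 over all genes tested. The libraries of batch 2 are not in these counts. Since the genes were picked with these values known, the counts describe the set and support nothing beyond it.

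**Figure D3:**
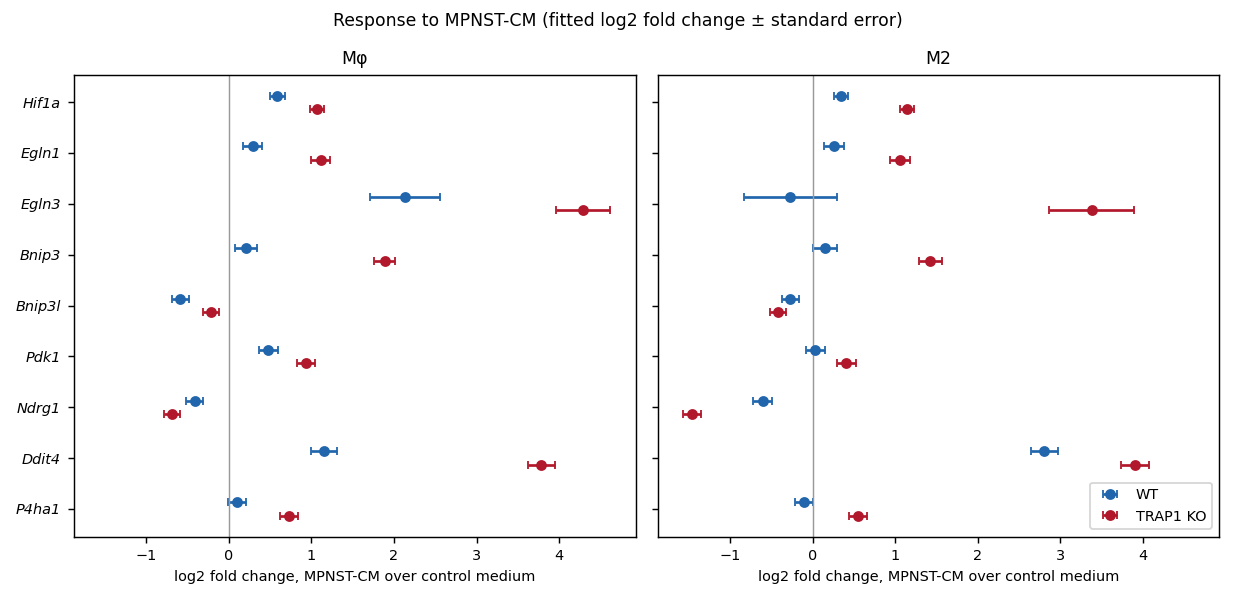
Fitted log2 fold change of MPNST-CM over control medium (horizontal axis, ± SE) for the 9 genes that passed the filter, in Mφ and in M2, with WT in blue and TRAP1 KO in red; 8 groups of 3 batch 1 libraries share 1 fit. The red point lies to the right of the blue one for every gene in Mφ but Ndrg1, and in M2 for every gene but Bnip3l and Ndrg1.

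TRAP1 KO and WT were also compared within each medium. In MPNST-CM, 8 of the 10 genes were wholly higher in KO Mφ and none was wholly lower, where 23.8% and 22.3% of all genes were (46.1% together). Adm is among the 8, on 2 to 4 counts against 0, but did not pass the filter that the genes behind these shares passed. In M2 in MPNST-CM the count was 7 higher and none lower, where 24.9% and 21.6% of all genes were (46.5% together). Pdk1 and Ndrg1 overlapped in both. In control medium the picture was mixed, with 2 higher and 1 lower in Mφ (17.4% and 14.3% of all genes, 31.7% together) and 2 higher and 4 lower in M2 (20% and 17.5% of all genes, 37.5% together). The higher pair was Bnip3l and Ndrg1 in both. The lower genes were Ddit4 in Mφ (-0.67 ± 0.18) and Egln1, Egln3, Pdk1 and P4ha1 in M2, Egln3 on 5 counts against 13. The comparisons of KO with WT and of MPNST-CM with control medium share libraries, and so are not independent of each other.

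**Figure D4:**
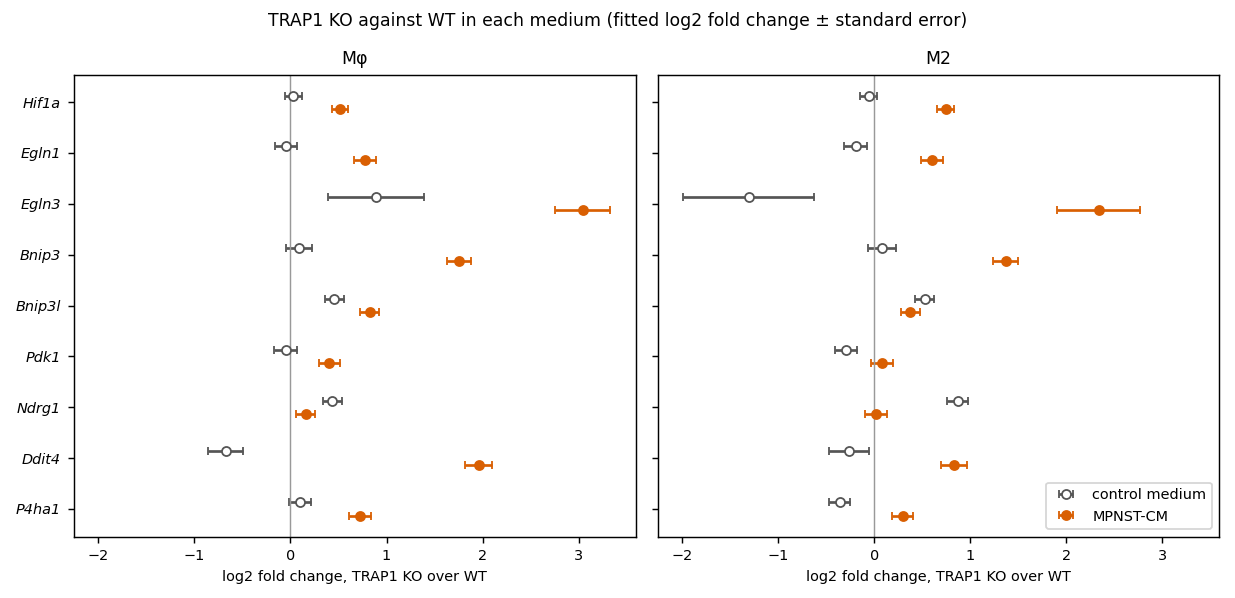
Fitted log2 fold change of TRAP1 KO over WT (horizontal axis, ± SE) for the 9 genes that passed the filter, in Mφ and in M2; open circles are control medium and filled circles MPNST-CM, from the 24 batch 1 libraries. In MPNST-CM the 9 points in each panel lie above 0, from 0.16 to 3.04 in Mφ and from 0.02 to 2.34 in M2, while in control medium they lie on both sides of 0.

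IL-4 in control medium left 5 of the 10 genes apart in WT and 4 in KO, close to the shares of all genes. There, 2 genes were wholly higher in WT M2 than in WT Mφ (Bnip3l and P4ha1) and 3 wholly lower (Bnip3, Ndrg1 and Ddit4), where 25.8% and 25.9% of all genes were (51.7% together). In KO cells Bnip3l was higher and 3 were lower (Bnip3, Pdk1 and Ndrg1), where 20.7% and 20% of all genes were (40.7% together). Ndrg1 had the largest of these differences in WT, and Hif1a differed by 0.08 ± 0.09 in WT and -0.01 ± 0.09 in KO. In the fit of all 27 libraries, M2 against Mφ in KO was 0.72 for Hif1a, 0.16 in place of -0.36 for Bnip3, 2.40 in place of -0.34 for Ddit4, 1.01 in place of -2.01 for Egln3 and 0.15 in place of 0.36 for Bnip3l, and in WT it was -1.84 for Ndrg1.

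The group with the highest mean of the 8 was shared by most of the set, though not always apart from the next. The order below it differed from gene to gene, and most neighbours in it overlapped. KO Mφ in MPNST-CM had the highest mean for 7 genes (Egln1, Egln3, Bnip3, Pdk1, Ddit4, Adm and P4ha1), Adm on 2 to 4 counts per library. The share of all genes with their highest mean in this group was not counted. The libraries of KO Mφ in MPNST-CM overlapped those of the next group for Pdk1 (WT Mφ in MPNST-CM), Ddit4 (KO M2 in MPNST-CM) and Adm (KO Mφ in control medium). KO M2 in MPNST-CM had the highest mean for Hif1a, at 109 ± 1.32 CPM (SD, n = 3) against 104 ± 6.92 CPM in KO Mφ, which overlapped. Below this pair, and apart from it, Hif1a ran WT Mφ (73.3 ± 4.93 CPM) and WT M2 in MPNST-CM (65.5 ± 4.49 CPM). Between these the gap was slight, with the lowest WT Mφ library at 69.47 CPM and the highest WT M2 library at 69.44 CPM. With TMM factors over 27 libraries these 2 libraries were at 69.9 and 73.2 CPM, so the groups overlapped. WT M2 was apart from the 4 control medium groups, from 51.6 to 48.7 CPM on average, which overlapped. For Bnip3 only the top pair was apart, KO Mφ (53.1 ± 2.67 CPM) and KO M2 (30.1 ± 3.93 CPM) in MPNST-CM, and the 6 groups under them overlapped from one to the next. Ndrg1 had the most neighbours apart, 5 of 7, and Pdk1 and P4ha1 had 1 each.

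Over the 24 libraries, log2 levels of the 9 genes correlated with r above 0.8 in 10 of 36 pairs and below 0 in 10 of 36. Hif1a and Ddit4 were most alike (r = 0.93) and Ndrg1 and P4ha1 least (r = -0.50); these values describe libraries that share groups and media, and no p is attached. Among 8197 other genes with a mean of at least 10 CPM, the 3 with the highest r are named for each gene; of these 27, only 7 were also among the nearest 3 by Spearman's rho. Aars, an alanyl-tRNA synthetase gene, was most like Hif1a (r = 0.98), followed by Klra2 and F5. Tpi1, a glycolytic enzyme, was nearest to both Egln3 (r = 0.94) and Pdk1 (r = 0.92). Nupr1, Cox14 and Lsr were nearest to Bnip3, Ogt, Abcg1 and Slc49a4 to Bnip3l, and Stk17b, Ptbp3 and Rab11a to Egln1. Ddit4 had Abcb1a (r = 0.98), Thbs1 and Vcan next to it. Card19 and Eif4ebp1 came after Tpi1 for Egln3, and Sec61g and Unc119 for Pdk1. Retreg1, Aif1 and B4galt6 were nearest to Ndrg1, and Cysltr1, Cyth1 and Tmx3 to P4ha1.

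Genes of the HIF pathway outside the set were tested with edgeR's quasi-likelihood test and Benjamini-Hochberg adjustment over all 13614 genes. They were listed as 17 genes of the machinery (partners, hydroxylases, the VHL ligase and cofactors) and 33 other targets, of which 15 and 28 passed the filter. The lists, too, were chosen with earlier results of these data known, so their counts describe them and support nothing beyond that. In each comparison the called genes named are up to 2 per list and direction, those that moved most within their own list. TRAP1 KO against WT in Mφ in MPNST-CM gave 21 of 43 called, 17 higher and 4 lower, where 38.2% of all genes were called, 19.1% higher and 19.2% lower. The median log2 fold change was 0.20 for the machinery and 0.24 for the other targets, against 0.04 over all genes. Vegfa, the angiogenic growth factor, rose from 26.5 to 288 CPM (log2 fold change 3.44 ± 0.12, adjusted p = 4.5e-18). Mmp9, a matrix metalloproteinase, rose from 1.72 to 13.2 CPM (2.92 ± 0.18). Os9 and Siah1a, a lectin of protein quality control and a ubiquitin ligase that acts on the prolyl hydroxylases, rose by 0.65 ± 0.09 and 0.73 ± 0.19. Tfrc, the transferrin receptor, fell by 1.20 ± 0.09 on the log2 scale, and Lox, lysyl oxidase, fell from 1.05 to 0.162 CPM, a level near the floor.
In M2 in MPNST-CM, 18 of 43 were called, 13 higher and 5 lower, where 34% of all genes were called, 17.2% higher and 16.8% lower. Vegfa rose from 81.9 to 217 CPM (1.41 ± 0.11) and Mmp9 from 77.5 to 209 CPM (1.43 ± 0.11). Arnt, the constant partner of HIF-1α, rose by 0.52 ± 0.12 and Cited2, which competes with HIF-1α for the cofactors CBP and p300, by 0.53 ± 0.16. Tfrc fell from 447 to 42.2 CPM (-3.40 ± 0.09, adjusted p = 1.4e-19). Lox had 3 counts in all in KO and 30 in WT, a ratio of 0.0991 (95% counting interval 0.0194 to 0.319). The median log2 fold change was 0.24 for the machinery and 0.14 for the other targets (0.11 with Nos2, which had no count in WT, taken at the floor), against 0.05 over all genes. With the batch 2 libraries in the fit, 12 of 43 genes were called in Mφ and 4 in M2, and without the 6 libraries that stood apart 24 and 21.

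**Figure D5:**
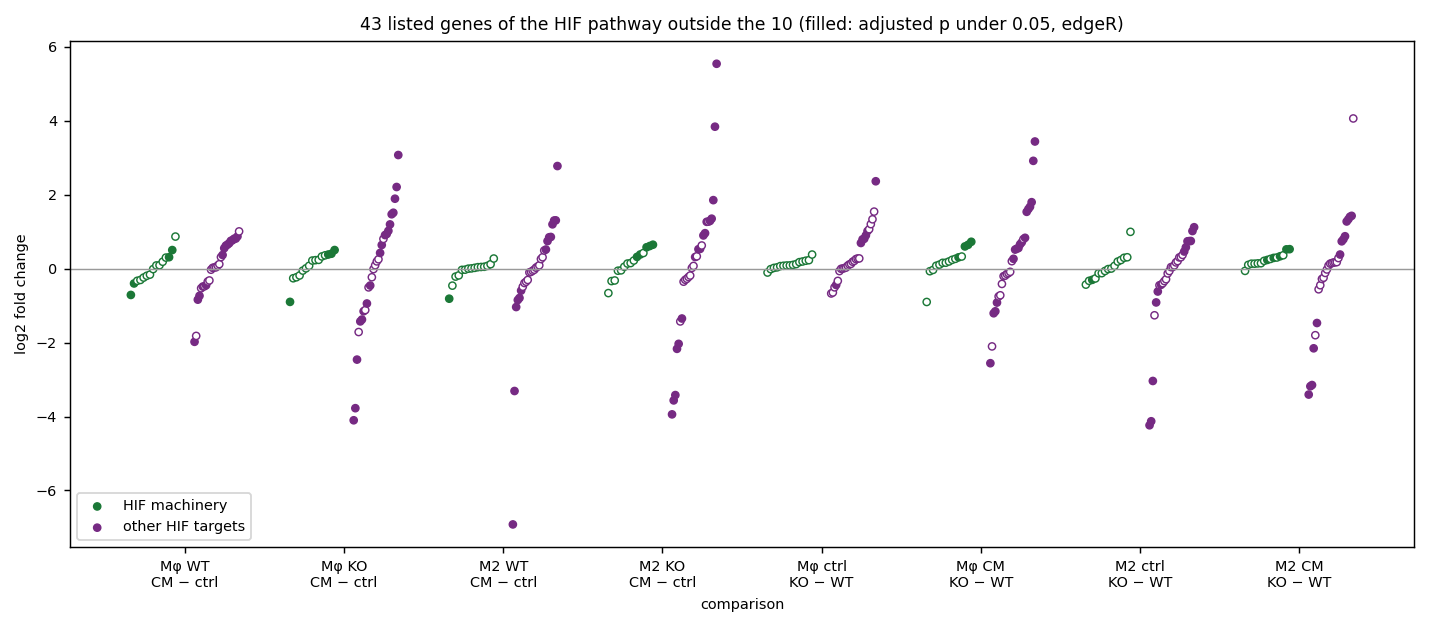
Fitted log2 fold changes of the 43 tested HIF pathway genes outside the set in 8 comparisons (vertical axis, log2), sorted within each list; filled points passed an edgeR adjusted p under 0.05. In Mφ in MPNST-CM 17 of the KO points are called above 0 and 4 below; the point near -7 is Nos2, without a count in WT M2 in MPNST-CM, so its height depends on the prior count.

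In control medium, KO against WT gave 7 of 43 called in Mφ, 6 higher and 1 lower, where 16.6% of all genes were called (8.64% higher and 7.97% lower). Mmp9 rose from 6.84 to 35.4 CPM and Vegfa from 16.8 to 34.1 CPM, and Fam162a, a mitochondrial protein induced by hypoxia, fell from 45.6 to 33.7 CPM. In M2 it gave 14 of 43, 7 higher and 7 lower, where 16.4% of all genes were called (8.56% higher and 7.87% lower). Cxcr4, a chemokine receptor, rose from 74.9 to 152 CPM and Plod2, a lysyl hydroxylase of collagen, from 1.64 to 3.59 CPM, while Arg1, arginase 1, fell from 92.0 to 4.89 CPM (-4.24 ± 0.25) and Rbx1, of the VHL ligase, fell by 0.30 ± 0.08. Nos2 had 2 counts in all in KO against 41 in WT (ratio 0.0490, counting interval 0.00575 to 0.189). The counts called were 4 in Mφ and 8 in M2 with the batch 2 libraries in the fit, and 14 (12 higher and 2 lower) and 22 (13 higher and 9 lower) without the 6 libraries that stood apart.

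MPNST-CM against control medium called 19 of 43 genes in WT Mφ, 12 higher and 7 lower, and 23 in KO Mφ, 14 higher and 9 lower, where 21.2% (11.3% higher, 9.96% lower) and 32.9% (14.8% higher, 18.1% lower) of all genes were called. In WT Mφ the largest rises among the other targets were those of P4ha2, another collagen prolyl hydroxylase (0.87 ± 0.21), and Hmox1, heme oxygenase 1 (0.82 ± 0.15), with Siah2 (0.51 ± 0.14) and Rbx1 (0.31 ± 0.08) in the machinery. The largest falls there were those of Mmp9 (-1.98 ± 0.20) and Rora (-0.84 ± 0.16) among the other targets and of Cited2 (-0.71 ± 0.16) and Arnt (-0.40 ± 0.12) in the machinery. In KO Mφ Vegfa rose from 34.1 to 288 CPM (3.08 ± 0.11) and Ero1a, an oxidase of disulphide formation, from 20.8 to 96.5 CPM (2.21 ± 0.11). Elob and Os9 rose by 0.51 ± 0.08 and 0.41 ± 0.09, while Cited2 fell by 0.90 ± 0.16. Lox fell from 3.10 to 0.162 CPM, the lower level being near the floor. Edn1, endothelin 1, had 2 counts against 31 (ratio 0.0623, counting interval 0.00722 to 0.245).
In M2, 15 genes were called in WT, 8 higher and 7 lower, and 22 in KO, 16 higher and 6 lower, where 24.5% (11.2% higher, 13.3% lower) and 36.8% (16.7% higher, 20.2% lower) of all genes were. Arg1 rose in both, from 92.0 to 632 CPM in WT and from 4.89 to 228 CPM in KO. P4ha2 rose by 1.31 ± 0.23 in WT, and Vldlr, a lipoprotein receptor, by 3.84 ± 0.48 in KO. Vhl fell in WT by 0.81 ± 0.14, and Eloc and Cul2, of the same ligase, rose in KO by 0.65 ± 0.19 and 0.61 ± 0.16. Edn1 fell from 48.3 to 4.86 CPM in WT, and Nos2, inducible nitric oxide synthase, had 41 counts in control medium and 0 in MPNST-CM, at least 5.11-fold lower when 3 counts per library are taken as the floor. Tfrc fell in KO from 498 to 42.2 CPM (-3.56 ± 0.09), and Lox had 3 counts there against 45 (ratio 0.0586, counting interval 0.0117 to 0.183). When batch 2 was included, the counts called were 6 and 14 in WT and KO Mφ and 8 and 5 in WT and KO M2; without the 6 libraries that stood apart they were 18 and 27, and 18 and 26.

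The difference between the responses of KO and WT to MPNST-CM was tested as an interaction. It was called for 13 of 43 genes in Mφ, 8 higher in KO and 5 lower, and for 18 of 43 in M2, 12 higher and 6 lower, where 19.7% (8.17% and 11.5%) and 20.2% (9.36% and 10.8%) of all genes were called. Within each list, the largest in Mφ were Vegfa (2.42 ± 0.16) and Ankrd37 (1.54 ± 0.40) of the other targets and Elob (0.41 ± 0.11) and Os9 (0.42 ± 0.13) of the machinery upward, and Lox (-3.62 ± 0.89) and Tfrc (-2.0005 ± 0.12) downward. In M2 Arg1 (2.77 ± 0.31) of the other targets and Rbx1 (0.54 ± 0.12) and Arnt (0.53 ± 0.18) of the machinery were named upward, and Lox (-3.55 ± 0.94) and Tfrc (-2.97 ± 0.12) downward; Nos2 was called too and is given no size, since a group had no count. The sizes for Lox rest on KO groups near the floor in MPNST-CM, at a mean of 0.162 CPM in Mφ and 3 counts in all in M2. In the fit of all 27 libraries, 4 and 2 genes were called in place of 13 and 18, and without the 6 libraries that stood apart 15 and 19.

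IL-4 in control medium called 22 of 43 genes in WT, 13 higher and 9 lower, and 19 in KO, 11 higher and 8 lower, where 37.2% (19.1% higher, 18.1% lower) and 28.5% (15.6% higher, 12.9% lower) of all genes were called. In WT M2 against WT Mφ, Arg1 rose from 0.359 to 92.0 CPM and Edn1 from 0.573 to 48.3 CPM, Vhl and Os9 rose by 0.55 ± 0.13 and 0.36 ± 0.09, and Cited2, Ep300, Plod2 and Vldlr fell by 1.16 ± 0.16, 0.39 ± 0.12, 1.31 ± 0.34 and 1.17 ± 0.45. In KO, Mmp9 rose by 2.75 ± 0.12, Tfrc by 2.57 ± 0.09 and Os9 by 0.33 ± 0.09, Cited2, Rbx1 and Vldlr fell by 1.25 ± 0.16, 0.41 ± 0.08 and 2.55 ± 0.54, and Nos2 had 2 counts against 23. With the batch 2 libraries in the fit, 17 and 11 genes were called in WT and KO, and without the 6 libraries that stood apart 25 and 20. The listed genes called with IL-4 thus moved in both directions, as did the called genes among all genes tested. The 10 genes did too, in numbers close to the shares of all genes.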

How the data were processed

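The authors prepared QuantSeq 3′ libraries from poly(A) RNA, trimmed the reads, mapped them with HISAT2, assigned them to genes with featureCounts and deposited the raw counts with no normalization. The submitters' processing notes name Trimmomatic, FastQC, SAMtools and DESeq beside these, with build mm39, while the published methods name mm10; no coordinate of that table was used. Of its 32 count columns, 5 had names that fit no sample here and were not used. Totals were 7037684 to 9089792 counts in batch 1 and 9997776 to 11152362 in batch 2, and fewer than 3 counts in a library were taken as not detectable, for counting error only.

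The 24 batch 1 libraries were fitted together with edgeR 4.0.16 (limma 3.58.1, R 4.3.3): TMM factors, filterByExpr on the groups, a quasi-likelihood fit (robust) of 8 groups and 12 contrasts, and Benjamini-Hochberg adjustment at 0.05. The fit and DESeq2 1.42.0 were tested on simulated data. CPM are counts over the TMM-scaled library size and are not divided by length. Alternatives were all 27 libraries with and without batch as a covariate, no filter, DESeq2, a replicate block, size factors by the median of ratios, fits to the compared groups only, a minimum absolute log2 change of 1, each library left out, the 6 libraries apart from their group left out together (over 10 in chi-square per degree of freedom to both others, under 5 between those; chosen after seeing the data), and, for likeness, a prior count of 0.5 in place of 2 and Spearman's rho. Correlations used log2 CPM.

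The 10 genes and both pathway lists were chosen with earlier results of these data known. Named from the lists, in each comparison, are the 2 called genes of each list with the largest rise and the 2 with the largest fall; Trap1 and Xist were checks, and 3 genes were named for likeness to each gene. Cd79a, Emcn, Tek, Kdr, S100a8, S100a9, Ly6g, Mpo, Mrc1, Clec10a, Retnla, Chil3 and Ccl24 were named after their values were seen.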

Additional observations from a re-analysis of the deposited data

Results flagged for a closer look

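Among 30 groups of 4 libraries (10 genes in the 3 groups with a batch 2 library), 7 held a library far from the other 3 by Dixon's criterion. Groups with no library over 3 counts, as for Adm, could not be flagged. The genes were read in the same libraries, so the 30 are not independent and 7 is not set against chance. The share over all genes was not counted. All 7 come from the batch 2 KO M2 libraries. The one labelled control medium was the highest of its group for Hif1a (173 CPM), Egln3 (6.51 CPM), Bnip3 (29.0 CPM) and Ddit4 (103 CPM). The one labelled MPNST-CM was the lowest for Hif1a (60.8 CPM) and Ddit4 (8.51 CPM) and the highest for Ndrg1 (43.2 CPM). Xist was at 308 and 404 CPM in these KO libraries and Trap1 at no more than 0.191 CPM.

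In 9 pairs of comparisons examined, libraries wholly apart in opposite directions were found for 4 genes, all for TRAP1 KO against WT in the 2 media. This difference was not tested for these genes, and the share of all genes that do the same was not counted. In the single comparisons of KO with WT, in control medium and in MPNST-CM, 31.7% and 46.1% of all genes were wholly apart in Mφ. In M2 the shares were 37.5% and 46.5%. Ddit4 in Mφ had log2 fold changes of -0.67 in control medium and 1.96 in MPNST-CM. The M2 values were -0.19 and 0.60 for Egln1, -1.31 and 2.34 for Egln3, and -0.36 and 0.29 for P4ha1. The control medium value of Egln3 in M2 rested on 5 counts in all in KO and 13 in WT. The ratio of KO to WT was 0.387 there, and its counting interval (0.108 to 1.16) includes no difference. That Egln3 value turned to 1.69 with all 27 libraries in the fit, so its opposite directions are not settled by these counts.

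Of the 43 listed pathway genes tested, the response to MPNST-CM differed between KO and WT by edgeR's interaction test for 13 in Mφ and 18 in M2.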

How the results depend on the processing

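The log2 fold changes of the 9 fitted genes in 12 comparisons (108 values) kept their direction and moved by less than the spread between replicates with median-of-ratios size factors, DESeq2 and no filter on low counts, and so did the 103 that could be fitted with the groups compared alone. Leaving out 1 library moved 4 of 756 values past that spread, and leaving out the 6 libraries that stood apart from their group moved 3 of 108. With all 27 libraries 25 values moved and 7 reversed, and with batch as a covariate 25 and 6. The reversed values, without and then with the covariate, were 0.64 and 0.33 for Hif1a and 1.69 and 0.71 for Egln3 (KO against WT, M2 in control medium), 1.01 and 0.029 for Egln3, 0.16 and 0.026 for Bnip3 and 2.40 and 1.18 for Ddit4 (M2 against Mφ, KO in control medium), and -2.03 and -0.86 for Ddit4 and, without it, -0.12 for Hif1a (KO against WT response, M2). The cause was not tested.

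Listed genes called with all 27 libraries, with batch as a covariate and with a minimum absolute log2 change of 1 were 6, 7 and 1 for MPNST-CM in WT Mφ, 14, 15 and 13 in KO Mφ, 8, 8 and 7 in WT M2 and 5, 5 and 12 in KO M2. They were 4, 3 and 2 for KO against WT in Mφ in control medium, 12, 13 and 9 in Mφ in MPNST-CM, 8, 6 and 5 in M2 in control medium and 4, 5 and 9 in M2 in MPNST-CM. For M2 against Mφ they were 11, 10 and 8 in KO, with 11 at the stricter size in WT. The interaction gave 4 and 4 in Mφ with the 27 libraries, and 2, 2 and 11 in M2. Leaving out each library moved no count by over 1.5 times (for example 17 to 22 for KO against WT in Mφ in MPNST-CM). Without the 6 libraries that stood apart the counts were 14 in place of 7 for KO against WT in Mφ and 22 in place of 14 in M2, both in control medium, and within 1.5 times elsewhere. Of the 27 genes nearest in pattern, 24 were shared with a prior count of 0.5 and 7 with Spearman's rho.

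Replicate numbers did not meet the criterion for pairing, which asks for a correlation over 0.1 in every pair: residuals of 77 same-numbered pairs across groups had a mean r of 0.107 (-0.214 to 0.521), with 34 over 0.1, against -0.045 and 30 of 175 for pairs of different number, and 11 of 24 libraries were most like one of their own number. Same-numbered pairs were thus more alike on average, and the main fit leaves replicate number out. In batch 1, WT M2 in control medium had replicates 2 to 4 and no replicate 1. With the replicate block, 20 listed genes were called for MPNST-CM in WT Mφ in place of 19 and 25 for KO against WT in Mφ in MPNST-CM in place of 21, and it moved 2 of the 108 fold changes, those of Pdk1 for MPNST-CM in WT M2 (0.13) and for KO against WT in M2 in control medium (-0.20).
Egln3 and Adm are limited by depth, with 13 counts or fewer in every batch 1 library in control medium. In batch 2, Egln3 had 14 counts in WT Mφ and 68 in KO M2 in control medium.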
